A study of Phycomyces blakesleeanus with 24 samples.

Results

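Calmodulin and the calmodulin-dependent kinases of Phycomyces blakesleeanus, a filamentous fungus whose aerial spore stalks (sporangiophores) bend and grow in response to light, were followed in light against dark. The 5 genes were taken by symbol from the RefSeq gene table of assembly Phybl2 (Cam1, CaMK2, CaMK7, CaMK9 and CaMK10), and all 5 were among the 14410 genes of the wild type tables. They were chosen by symbol, but with their log2 fold changes and false discovery rates (FDR) in the 4 comparisons already known, so those values are a description of these genes and support nothing further. The row numbers of the tables were read as the numbers in the locus tags of that gene table, and what each gene encodes rests on its symbol.

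Calmodulin is a small protein with EF-hand loops that bind calcium. Loaded with calcium, it wraps around a helix of its target kinases and so releases them from their own inhibition, and it also switches on the phosphatase calcineurin. In fungi this pathway is known for its part in stress tolerance, polar growth of hyphae and spore germination.

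The groups were sporangiophores and mycelium of ΔL51, named in the labels only as a photoreceptors mutant with no alleles given, and the same structures of the wild type strain. All cultures grew on potato dextrose agar, in light or in darkness, and no light intensity, duration or age was given. Of 24 libraries, 3 per group, the study kept 20 and dropped 4 that varied more than their replicates, which was decided from the data themselves. That left 3 light and 2 dark libraries of ΔL51 sporangiophores, 2 light and 2 dark of wild type sporangiophores, 3 light and 3 dark of ΔL51 mycelium, and 3 light and 2 dark of wild type mycelium. Each comparison was used as the authors' deposited table, which holds a log2 fold change (light over dark, by the table's title), an average log2 CPM (read counts scaled to library size) and an FDR for each gene, and a gene is called here when that FDR was under 0.05. No count of any single library was analysed here. Depth is therefore unknown, and the error given is an approximate standard error (SE), the size of the fold divided by the square root of its likelihood ratio.

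The spread of all genes frames what follows. In the authors' deposited table of ΔL51 sporangiophores 477 genes were called higher and 1779 lower in light, and in that of wild type sporangiophores 1042 higher and 170 lower. The counts in the authors' deposited table were 77 higher and 82 lower for ΔL51 mycelium, and 1421 higher and 603 lower for wild type mycelium. A running median along log2 CPM, over the folds other than 0, was then taken out, and a fold of exactly 0 could not be called. With it taken out, ΔL51 sporangiophores had 620 higher and 1392 lower, and wild type sporangiophores 451 higher and 200 lower. The same step gave 66 higher and 103 lower in ΔL51 mycelium, and 947 higher and 1185 lower in wild type mycelium. The median of folds other than 0 was 0.39 in wild type mycelium, and with it subtracted 828 genes were called higher and 1235 lower there. Centring in the same way gave 55 higher and 100 lower in ΔL51 mycelium. CarB and CarRA, carotene genes known to be induced by light in this fungus, were looked up as a check of direction. In the authors' deposited table of ΔL51 mycelium both were called lower in light, CarB at -2.65 (FDR 1.3e-05) and CarRA at -2.28 (FDR 2.3e-04). The authors' deposited table of wild type mycelium had them at -0.13 and 0.38 with no call, and neither was called in sporangiophores of either strain. The check therefore does not bear out the direction read from the titles. It could not decide that direction either, since no light duration was given and ΔL51 is a photoreceptor mutant. In ΔL51 mycelium both genes ran against the direction known from the wild type.

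Cam1, the calmodulin gene, was the most abundant of the group and had the widest range of folds. It was called lower in light in ΔL51 sporangiophores and higher in wild type sporangiophores, the opposite directions. In the authors' deposited table of ΔL51 sporangiophores its log2 fold change was -3.03 (approximate SE 0.39, FDR 2.2e-13), so that dark cultures held 8.20 times as much of it. In wild type sporangiophores the authors' deposited table gave 2.25 (approximate SE 0.42, FDR 7.4e-06), a 4.75-fold higher level in light. The mutant fold minus the wild type fold came to -5.28, with an approximate 95% interval of -6.40 to -4.17. That difference is not tested, as the gene was chosen with it in view. The sign of each fold rests on the title of its table, and exchanged light and dark labels in one of them would turn that fold and make the folds of Cam1 alike in sign.

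Genes as abundant as Cam1 had folds of the same sign in each sporangiophore comparison. At its log2 CPM the running median of folds other than 0 was -2.46 in ΔL51 sporangiophores and 1.68 in wild type sporangiophores. That left Cam1 at -0.58 and 0.56 from its neighbours in level. Both calls ended with this trend subtracted (adjusted p = 0.377 in ΔL51 and 0.571 in wild type, from a normal approximation with Benjamini-Hochberg adjustment over the table). Among the tenth of genes with the highest log2 CPM, 55.2% were called lower in ΔL51 sporangiophores and 42.6% were called higher in wild type sporangiophores. Of the 1779 genes called lower in ΔL51 sporangiophores, 810 (45.5%) were called higher in wild type sporangiophores, and these were 77.7% of the 1042 called higher there. Across 14410 genes the folds of these comparisons, which share no library, had a Pearson r of -0.51, given as a description, since genes are not independent and both tables appear to come from one fit. Whether this opposition lies in the cultures or in the labels was not tested.

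In mycelium, Cam1 was called in the wild type alone, where it was lower in light. The authors' deposited table of ΔL51 mycelium gave 0.43 (approximate SE 0.63, FDR 1), a value within its own error of 0. Wild type mycelium had -1.64 (approximate SE 0.39, FDR 5.7e-04) in the authors' deposited table, with a 3.12-fold higher level in the dark. Unlike the sporangiophore values, this one stood away from genes of its level: the running median there was -0.32, and Cam1 remained called at -1.32. The mutant fold minus the wild type fold was 2.07 (approximate 95% interval 0.62 to 3.51), not tested. Within the wild type, the sporangiophore fold minus the mycelium fold was 3.89 (2.77 to 5.01), with more calmodulin RNA in light in sporangiophores and less in mycelium. The part of the trend on level in that difference was not tested.

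**Figure D1:**
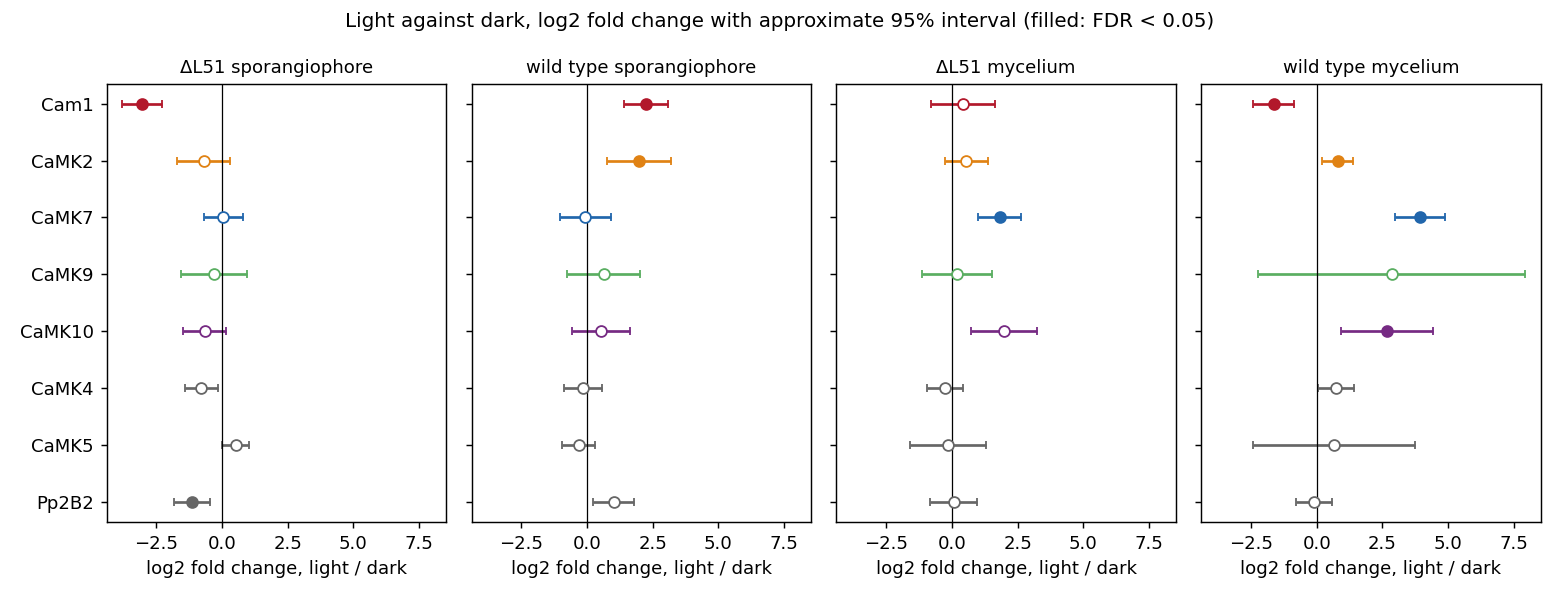
Log2 fold change in light over dark (horizontal axis) of the 5 genes and of CaMK4, CaMK5 and Pp2B2 (rows) in the 4 comparisons (panels), with bars for the approximate 95% interval and filled points for an FDR under 0.05 in the authors' deposited table. Cam1 stands at -3.03 in ΔL51 and 2.25 in wild type sporangiophores, while CaMK7 stands at 1.82 in ΔL51 and 3.93 in wild type mycelium and near 0 in both sporangiophore panels.

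CaMK7 had the highest fold among the 4 CaMK genes chosen here, and it was called in mycelium of both strains. Its log2 fold change in the authors' deposited table of ΔL51 mycelium was 1.82 (approximate SE 0.42, FDR 0.0044), a 3.53-fold higher level in light. Wild type mycelium had 3.93 (approximate SE 0.48, FDR 1.4e-13) in the authors' deposited table, which is 15.2-fold. The mutant fold was below the wild type fold by a difference of -2.11, with an approximate 95% interval of -3.37 to -0.85, again not tested.

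CaMK7 was called in neither strain's sporangiophores. The authors' deposited table listed 0.05 (approximate SE 0.38, FDR 0.956) in ΔL51 sporangiophores and -0.06 (approximate SE 0.50, FDR 0.973) in the wild type. Their approximate 95% intervals ran from -0.69 to 0.79 in ΔL51 and from -1.03 to 0.92 in wild type sporangiophores, so changes of about the size seen in mycelium lie outside both. The sporangiophore fold minus the mycelium fold was -1.77 (-2.88 to -0.66) in ΔL51 and -3.98 (-5.34 to -2.62) in the wild type. Genes of CaMK7's abundance had smaller folds: the running median at its level, over folds other than 0, was 0.02 in ΔL51 mycelium and 0.49 in wild type mycelium. The wild type call held under all 7 alternatives run, of which the other FDR and fold thresholds were already met by the deposited values. The ΔL51 call ended when an F distribution with 12 degrees of freedom replaced the chi-square reference for the likelihood ratio (adjusted p = 0.269). That number of degrees of freedom need not hold for this table.

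CaMK10 had folds of a like pattern to CaMK7 but with wider errors. In ΔL51 mycelium its fold in the authors' deposited table was 1.99 (approximate SE 0.63, FDR 0.0964), short of the threshold. Wild type mycelium gave 2.67 (approximate SE 0.89, FDR 0.0247) in the authors' deposited table, or 6.39-fold. These differ by -0.69, mutant minus wild type, and the approximate 95% interval of -2.83 to 1.46 is wide enough to hold 0 and large differences in either direction.

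In sporangiophores CaMK10 was at -0.65 (approximate SE 0.42, FDR 0.338) in ΔL51 and 0.55 (approximate SE 0.56, FDR 0.681) in the wild type, in the authors' deposited table of each. Neither value was called. The wild type mycelium call was lost after centring (2.29, adjusted p = 0.0661), after the trend on level was subtracted (2.21, adjusted p = 0.0770) and under the F distribution (adjusted p = 0.101).

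CaMK2 was called in both wild type comparisons and in neither of the mutant, though its wild type mycelium call sat at the threshold. Its wild type sporangiophore fold was the larger, and genes of the same abundance did not share it. In sporangiophores the authors' deposited table gave -0.69 (approximate SE 0.51, FDR 0.431) for ΔL51 and 1.99 (approximate SE 0.62, FDR 0.0221) for the wild type, 3.97-fold higher in light. The running median at its level was -0.05 in ΔL51 and 0.04 in wild type sporangiophores. The mutant minus wild type difference was -2.68 (approximate 95% interval -4.27 to -1.10), not tested.

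CaMK2 in mycelium had 0.56 (approximate SE 0.42, FDR 0.736) in ΔL51 and 0.80 (approximate SE 0.30, FDR 0.0495) in the wild type, from the authors' deposited table of each. The mutant minus wild type difference there was -0.24, with an approximate 95% interval of -1.24 to 0.76 that holds 0, not tested. The wild type value sat at the threshold, and after centring it was 0.41 with an adjusted p of 0.438. With the F distribution both wild type calls of CaMK2 ended (adjusted p = 0.123 in sporangiophores and 0.138 in mycelium).

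CaMK9, the least abundant of the 5, was called in no comparison. Its folds in the authors' deposited table were -0.31 (FDR 0.820) in ΔL51 sporangiophores and 0.64 (FDR 0.714) in wild type sporangiophores, with approximate SEs of 0.64 and 0.70. The authors' deposited table of ΔL51 mycelium gave 0.21 (approximate SE 0.68, FDR 1). Its 2.85 in the authors' deposited table of wild type mycelium is no estimate for this gene: 427 other genes carried that fold to within 0.001, and their log2 CPM ran from 2.00 to 5.82. Once rounded to 3 decimals, 7 fold values of ΔL51 mycelium and 6 of wild type mycelium were each shared by at least 50 genes, against 0 such values in either sporangiophore table. CaMK9's approximate SE there was 2.59, so its behaviour in wild type mycelium was not measurable from these data. The folds of CaMK7 and CaMK10 were not shared in this way: within 0.001, CaMK7's was shared with 1 other gene in ΔL51 mycelium and 0 in wild type mycelium, and CaMK10's with 0 in ΔL51 mycelium and 1 in wild type mycelium. How many reads lie behind those folds is unknown.

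**Figure D2:**
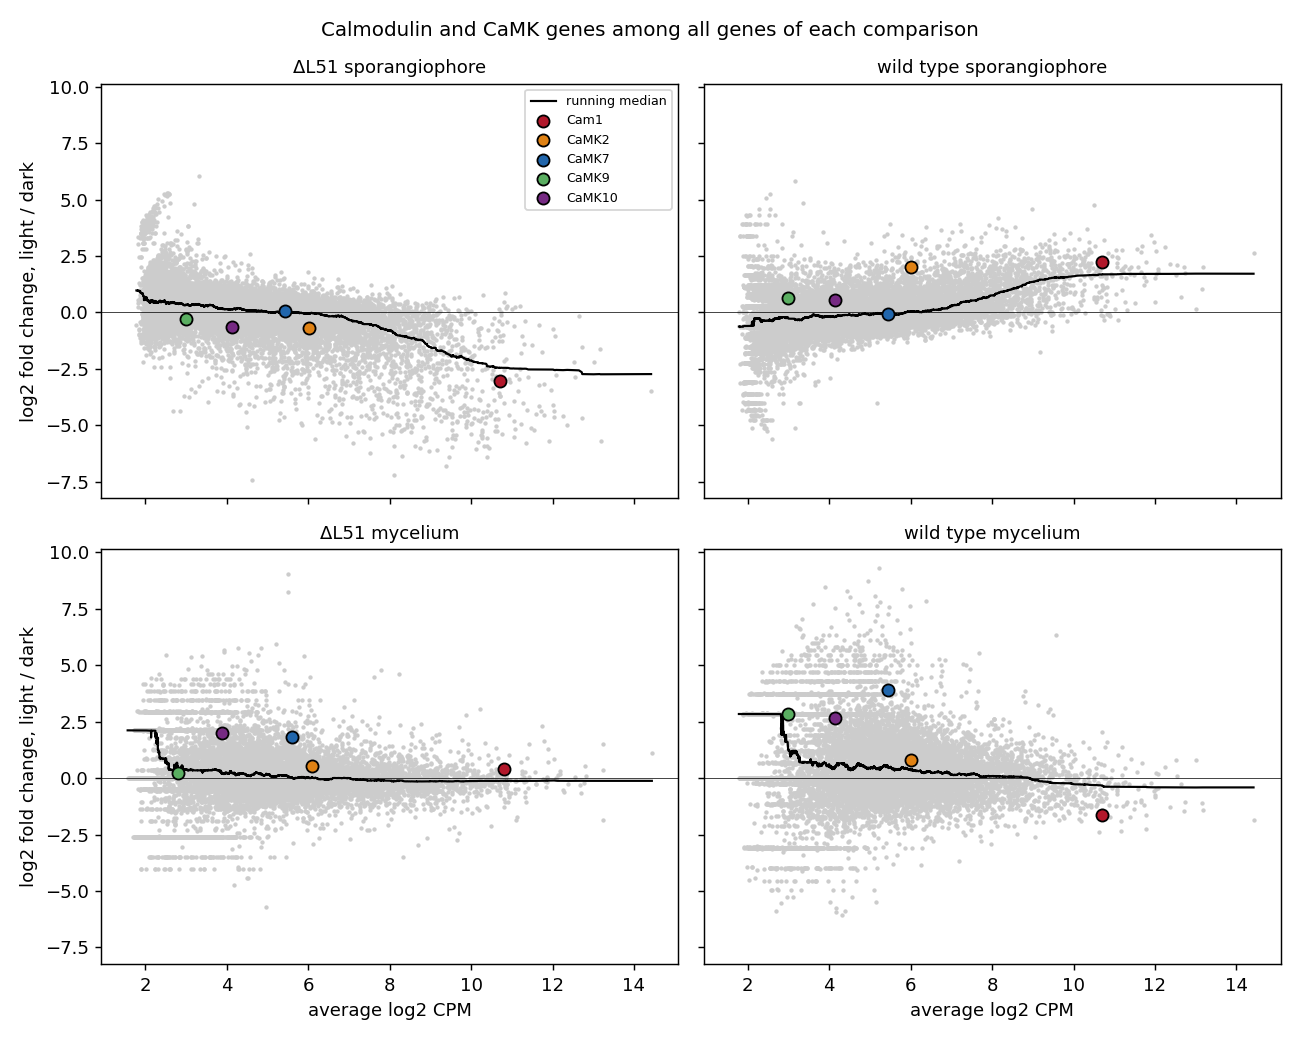
Log2 fold change in light over dark against average log2 CPM for every gene (grey), with the running median of 500 genes whose fold is other than 0 (line) and the 5 calmodulin and CaMK genes (coloured points), 1 panel per comparison. In sporangiophores the line falls to -2.46 in ΔL51 and climbs to 1.68 in wild type at the log2 CPM of Cam1, whereas at the log2 CPM of CaMK7 the line is at 0.02 in ΔL51 and 0.49 in wild type mycelium.

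Counted together, 1 of the 5 genes was called lower in ΔL51 sporangiophores, where 12.3% of all genes were, and 0 were called higher, against 3.31% (by the authors' edgeR test, 1 of the 5 had a p under 0.05 before adjustment). In wild type sporangiophores 2 were called higher (7.23% of all genes) and 0 lower (1.18%). ΔL51 mycelium had 1 called higher (0.541% of all genes) and 0 lower (0.576%), with 2 of the 5 at an unadjusted p under 0.05. Wild type mycelium had 3 called higher (9.86% of all genes) and 1 lower (4.18%). The median fold of the 5 genes was -0.65 in ΔL51 sporangiophores and 0.64 in wild type sporangiophores, where the medians of all genes were 0.05 and -0.05. In ΔL51 mycelium it was 0.56, and in wild type mycelium 2.67, or 1.74 without CaMK9. The median of all genes was 0 in each mycelium table, where 2793 folds in ΔL51 and 3193 in the wild type were exactly 0, and over the other folds it was 0.08 in ΔL51 and 0.39 in the wild type. As the genes were picked with these folds known, nothing is read from the counts.

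**Figure D3:**
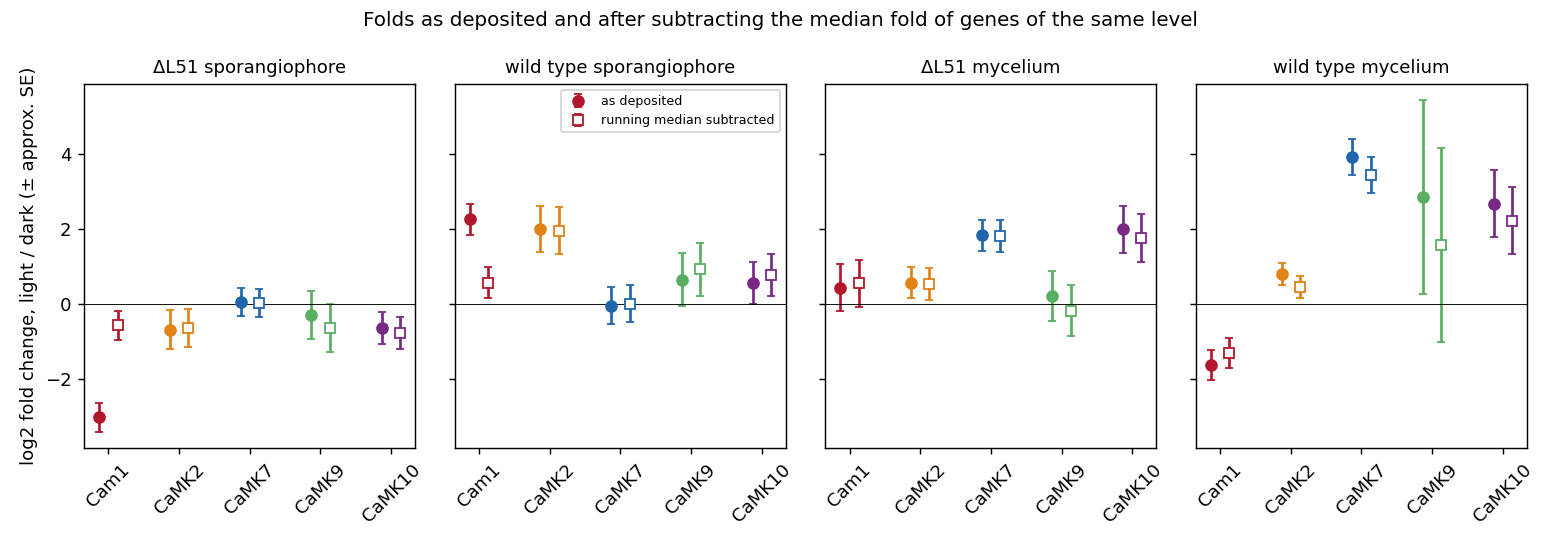
Log2 fold change in light over dark of each gene as deposited (circles) and with the running median of genes at its log2 CPM subtracted (squares), with bars of 1 approximate SE, in the 4 comparisons. Cam1 moves to -0.58 in ΔL51 sporangiophores and 0.56 in wild type sporangiophores, while CaMK7 moves to 1.80 in ΔL51 mycelium and 3.44 in wild type mycelium.

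Levels were compared per kilobase of gene span, introns included, on the log2 CPM scale. By the average log2 CPM common to the sporangiophore and wild type mycelium tables, Cam1 was at 10.26, above 99.3% of genes. Which libraries that average covers is not known here. CaMK2 followed at 4.96, CaMK7 at 4.69, CaMK10 at 3.39 and CaMK9 at 2.60, the last above 16.6% of genes. In the ΔL51 mycelium table, which came from another fit, the order was the same, with 10.37 for Cam1, 5.03 for CaMK2, 4.85 for CaMK7, 3.14 for CaMK10 and 2.40 for CaMK9. No spread between libraries is at hand to say whether adjacent genes in this order, such as CaMK2 and CaMK7, differ.

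The gene table has symbols for 213 of 16850 genes, so how many further calmodulin pathway genes there are is unknown. Besides the 5 genes it named CaMK4 and CaMK5, further kinases of the family by symbol, and Pp2B2, by its symbol a gene of protein phosphatase 2B (calcineurin), and 1 of these 3 was called in 1 comparison. Pp2B2 was lower in light in ΔL51 sporangiophores at -1.12 (approximate SE 0.35, FDR 0.0105) and had 1.02 (approximate SE 0.39, FDR 0.0921) in wild type sporangiophores, according to the authors' deposited table of each. These are the directions of Cam1, and as for Cam1 the running median at its level ran the same way, at -0.59 in ΔL51 and 0.59 in wild type sporangiophores. In mycelium the authors' deposited table gave Pp2B2 values of 0.07 (FDR 1) in ΔL51 and -0.09 (FDR 1) in the wild type. The ΔL51 call of Pp2B2 ended with the trend subtracted and under the F distribution.

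CaMK4 and CaMK5 were called in none of the 4 comparisons by the authors' edgeR test, though each had an unadjusted p under 0.05 in ΔL51 sporangiophores and CaMK4 also in wild type mycelium. CaMK4 stood at -0.77 (FDR 0.0902) in ΔL51 sporangiophores and -0.14 (FDR 0.900) in wild type sporangiophores in the authors' deposited table, and at -0.26 (FDR 0.973) in ΔL51 mycelium and 0.73 (FDR 0.180) in wild type mycelium. CaMK5 had 0.53 (FDR 0.184) in ΔL51 sporangiophores and -0.31 (FDR 0.689) in wild type sporangiophores in the authors' deposited table, with -0.15 (FDR 1) in ΔL51 mycelium and 0.67 (FDR 1) in wild type mycelium. At 5.14 log2 CPM per kilobase, CaMK4 stood above CaMK2 in level. CaMK5 was less precisely measured there, with an approximate SE of 1.57 in wild type mycelium.

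Of 30 other protein kinases by symbol, 1 was called higher and 4 lower in ΔL51 sporangiophores, where 3.31% and 12.3% of all genes were, and 1 higher and 0 lower in wild type sporangiophores, against 7.23% and 1.18%. In ΔL51 mycelium 0 were called (by the authors' edgeR test, 2 with a p under 0.05 before adjustment), against 0.541% higher and 0.576% lower. Wild type mycelium had 7 higher and 0 lower, against 9.86% and 4.18% of all genes. Their median fold was 0.15 in ΔL51 and -0.11 in wild type sporangiophores, and 0.07 in ΔL51 and 0.62 in wild type mycelium. PPK2 had the largest called rise in wild type mycelium at 5.82 (FDR 0.0118) in the authors' deposited table, with an approximate SE of 1.78, and -0.02 (FDR 1) in ΔL51 mycelium. CK2A, the catalytic subunit of casein kinase 2 by its symbol, was called in both sporangiophore comparisons, at -1.52 (FDR 4.4e-07) in ΔL51 and 1.68 (FDR 3.1e-05) in the wild type in the authors' deposited table. PRP4 had the largest called fall in ΔL51 sporangiophores at -1.82 (FDR 1.7e-06), while PKC1, of the protein kinase C family going by its name, was the kinase called higher there at 0.62 (FDR 0.0488), both in the authors' deposited table. SSP1 was singled out after its values were seen and was called in no comparison. It had 0.06 (FDR 1) in ΔL51 mycelium and 2.40 (FDR 0.202) in wild type mycelium in the authors' deposited table. Its sporangiophore values there were 0.73 (FDR 0.139) in ΔL51 and -0.58 (FDR 0.426) in the wild type.

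Likeness of pattern was measured as the Euclidean distance over the 4 log2 fold changes, among 169 genes that have a symbol and reach the median log2 CPM. The folds were as deposited, with no trend on level subtracted, and genes without a symbol were not searched. Nearest to Cam1 were ATP18_2 (distance 0.93), SDHC (0.99) and ATP20 (1.01), subunits of ATP synthase and of succinate dehydrogenase by their symbols. Like Cam1, at an average log2 CPM of 10.70 in the wild type comparisons, they were abundant, at 9.45, 10.03 and 9.00. The part of the trend on level in this likeness was not tested. ATP20 had -3.80 in ΔL51 sporangiophores, 2.25 in wild type sporangiophores, -0.12 in ΔL51 mycelium and -1.25 in wild type mycelium in the authors' deposited table. CaMK2 lay nearest to PbMdha (0.95), NDUFS1_2 (0.99) and PbCsb (1.15), which are malate dehydrogenase, complex I and citrate synthase genes by symbol. Among these 169 genes the closest to CaMK7 were RdRP-1a (1.79), an RNA-dependent RNA polymerase, PkaR4 (2.13), a regulatory subunit of cAMP-dependent kinase, and WcoA (2.15), a relative of the photoreceptor White Collar 1. In the authors' deposited table PkaR4 had 3.85 (FDR 0.531) in ΔL51 mycelium and 4.29 (FDR 0.226) in wild type mycelium, neither called. Within 0.001, 6 and 9 other genes shared these folds. WcoA was called in wild type mycelium at 5.28 (FDR 6.5e-45) and in wild type sporangiophores at 1.04 (FDR 0.0033). Unlike CaMK7, WcoA was not called in ΔL51 mycelium, at 0.58 (FDR 0.846). The kinase gene PPK5, under the median log2 CPM and so not searched, lay nearer to CaMK7 than these genes. In the authors' deposited table it had 0.10 in ΔL51 and -0.37 in wild type sporangiophores. Its mycelium values were 0.22 in ΔL51, not called, and 3.81 (FDR 0.0010) in the wild type. CaMK10 was nearest to HK_IC (1.39), RdRP-1a (1.53) and STKc (2.01). For CaMK9 the nearest were QCR1_3 (0.77), RdRP-1a (0.88) and PbFumHa (1.24), a likeness that includes the shared value in wild type mycelium. CaMK10 and CaMK9 were themselves under the median log2 CPM, so genes of their own level were not searched and may lie nearer.

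**Figure D4:**
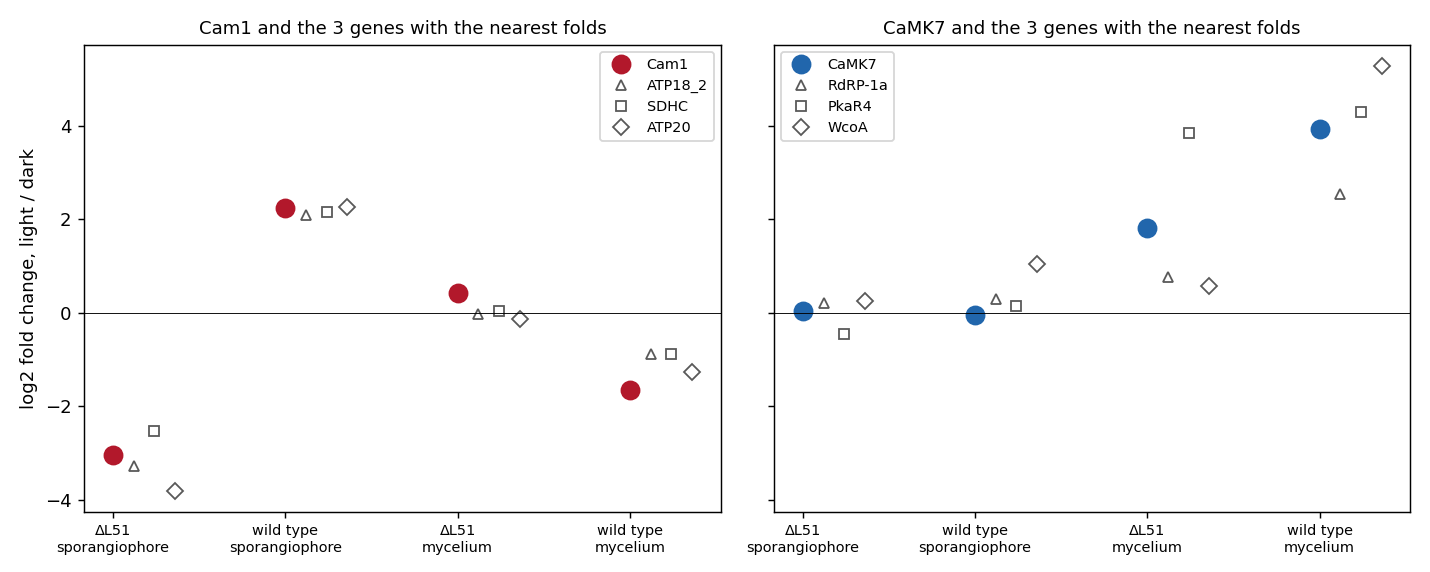
Log2 fold change in light over dark (vertical axis) in the 4 comparisons for Cam1 (left) and CaMK7 (right) with the 3 genes nearest to each over these folds (open markers, shifted sideways for legibility). Only genes with a symbol and at least the median log2 CPM were searched. ATP18_2, SDHC and ATP20 lie within a distance of 1.01 of Cam1, and the genes shown for CaMK7 lie farther off, from 1.79 to 2.15.

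The genes listed next to each of the 5 in the gene table were also looked up, and their distance on the genome was not checked. Of the 10 such genes measured in each table, 2 were called in ΔL51 sporangiophores (15.7% of all genes, in either direction), 1 in wild type sporangiophores (8.41%), 0 in ΔL51 mycelium (1.12%) and 2 in wild type mycelium (14%). The 2 in ΔL51 sporangiophores were PHYBLDRAFT_168063, listed before Cam1, at 1.31 (FDR 1.2e-04) and opposite to Cam1, and PHYBLDRAFT_112394, listed before CaMK2, at -1.08 (FDR 0.0108), in the authors' deposited table. Neither gene listed next to CaMK7 was called in any comparison, and in wild type mycelium PHYBLDRAFT_60213 had 0 and PHYBLDRAFT_115639 had 0.26 in the authors' deposited table. PHYBLDRAFT_130696, listed before CaMK10, was called higher in wild type mycelium at 1.66 (FDR 0.0143) in the authors' deposited table. PHYBLDRAFT_145231, listed after CaMK2, was called lower there at -1.94 (FDR 1.3e-04) in the authors' deposited table, opposite to CaMK2, and higher in wild type sporangiophores at 1.58 (FDR 0.0281).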

How the data were processed

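Per the labels' protocols, RNA was taken with Trizol and amplified by the Message Amp-II kit. Bowtie and edgeR were used, per the submitters' processing notes. For versions, build, annotation, strand and low-count filters, the entry is not given in the sources used here. The authors deposited 4 tables of log2 fold changes and average log2 CPM, with a likelihood ratio score, p-value and FDR per gene, per the file headers. The deposited p-value is what a chi-square reference with 1 degree of freedom gives, and the FDR its Benjamini-Hochberg value over the table. The planned count test needs counts per library, so the authors' own comparison was reported, as the plan allowed.

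Row numbers were matched to locus tags of assembly Phybl2 (14355 of 14410 matched). Approximate SEs, centring, a running median and an F distribution were computed with Python 3.11.15, numpy 2.4.6 and scipy 1.17.1. The running median took 500 genes with a fold other than 0 along log2 CPM (fewer at its ends). The trend step was tried on simulated folds drawn with normal noise of the approximate SE. By that construction it could not test whether the SE or the normal approximation holds for these data. The F distribution had 12 degrees of freedom (20 libraries less 8 groups). This was assumed for every table, although ΔL51 mycelium came from another fit whose degrees of freedom are unknown. Which libraries entered the fit of the other tables is not known here either. An approximate SE covers the authors' model, not a measured spread between libraries, and understates it where outlying libraries were set aside. Named genes were the 5 genes, the other calmodulin pathway genes, the kinases called with the largest rise and fall, and the 3 nearest patterns of each. The members and lists were chosen with earlier results of these data known. The pathway list was made from symbols, as the gene table gives no products. hspA was not analysed here.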

Additional observations from a re-analysis of the deposited data

How the results depend on the processing

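The calls of CaMK7 (higher) and Cam1 (lower) in wild type mycelium kept their direction and side of the threshold under all 7 alternatives (FDR under 0.01 or under 0.1, F distribution, adjustment over genes at or above the median log2 CPM, a log2 fold of at least 1, centring, trend on log2 CPM). For both genes the deposited values already met the other FDR thresholds and the fold threshold, so those alternatives could not end either call. With the trend subtracted, Cam1 had -0.58 in ΔL51 and 0.56 in wild type sporangiophores, CaMK9 in ΔL51 mycelium turned to -0.18, and CaMK2 (0.45) and CaMK10 (2.21) in wild type mycelium were no longer called. Centring likewise ended CaMK2 (0.41) and CaMK10 (2.29) there. An FDR under 0.01 and the F distribution ended the calls of CaMK2 in wild type sporangiophores (1.99) and of CaMK2 (0.80) and CaMK10 (2.67) in wild type mycelium. A log2 fold of at least 1 also ended CaMK2 (0.80), and the F distribution that of CaMK7 in ΔL51 mycelium (1.82). At an FDR under 0.1 CaMK10 in ΔL51 mycelium (1.99) was called. For the changes under other thresholds the alternative's own construction is the cause, and for centring and the trend the shift subtracted is.

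Of the 5 genes, the 1 called lower in ΔL51 sporangiophores became 0 with the trend subtracted. The 2 higher in wild type sporangiophores became 1 at an FDR under 0.01, under the F distribution and with the trend subtracted. The 1 higher in ΔL51 mycelium became 2 at an FDR under 0.1 and 0 under the F distribution. The 3 higher in wild type mycelium became 1 at an FDR under 0.01, under the F distribution, after centring and with the trend subtracted. They became 2 with a log2 fold of at least 1, and 2 with adjustment over the more abundant genes, which left CaMK10 out. Among CaMK4, CaMK5 and Pp2B2, the 1 lower in ΔL51 sporangiophores became 0 at an FDR under 0.01, under the F distribution and with the trend subtracted, and 2 at an FDR under 0.1, where wild type sporangiophores gained 1 higher. Of the other kinases, the 1 higher in ΔL51 sporangiophores became 0 at an FDR under 0.01, under the F distribution, with a log2 fold of at least 1, after centring and with the trend subtracted. The 4 lower there became 2 under the F distribution, and 3 at an FDR under 0.01, with a log2 fold of at least 1 and with the trend subtracted. The 1 higher in wild type sporangiophores became 2 at an FDR under 0.1 and with adjustment over the more abundant genes. The 7 higher in wild type mycelium became 4 at an FDR under 0.01, 3 under the F distribution and 6 with a log2 fold of at least 1. They became 5 with adjustment over the more abundant genes, after centring and with the trend subtracted, while 1 was lower in each of the last 2 settings.

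No paired analysis was possible because the deposited tables hold no values per library, and for the same reason leaving out replicates was not run. The direction of every fold rests on the title of its table.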
